A study of Mus musculus with 36 samples.

Results

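Mouse genes for 5 families of liver enzymes were followed: the glutathione S-transferases (Gst), the UDP-glycosyltransferases (Ugt), the cytosolic sulfotransferases (Sult), the carboxylesterases (Ces) and the flavin-containing monooxygenases (Fmo). The members were the protein-coding genes whose symbols begin with Gst and a class letter (a, k, m, o, p or t), Ugt1 to Ugt3, Sult1 to Sult5, Ces1 to Ces3 or Fmo1 to Fmo5, and 83 of the 34829 genes in the table met that rule. They comprised 21 Gst, 21 Ugt, 19 Sult, 17 Ces and 5 Fmo genes. The study measured RNA in livers of C57BL6/J mice, an inbred laboratory strain, after injection of lipopolysaccharide (LPS), a component of the outer membrane of Gram-negative bacteria that triggers systemic inflammation. Mice were at an ambient temperature of 22 °C, which the series calls room temperature, or of 30 °C, which it calls thermoneutral, a temperature at which a mouse needs little extra heat production to keep its body warm. At 22 °C there were 4 libraries at 0 h, 4 at 4 h, 5 at 12 h and 5 at 24 h after LPS, and at 30 °C there were 5, 4, 4 and 5. Strain, tissue and LPS were thus shared by the groups, and no library at 4, 12 or 24 h came without LPS, so time after LPS cannot be told apart from time of day, feeding or the injection itself. The labels give neither sex nor LPS dose, and nothing in them says that each library is its own animal. Every p-value therefore measures the spread between these libraries, which may in part be technical.

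These enzymes make foreign and endogenous compounds easier to excrete or to inactivate. Gst enzymes attach glutathione to reactive electrophiles, Ugt enzymes attach sugars, mainly glucuronic acid, to bilirubin, steroids and drugs, and Sult enzymes attach sulfate to hormones, bile acids and phenols. Carboxylesterases cleave esters of drugs and lipids, and flavin monooxygenases oxidise nitrogen and sulfur atoms of drugs and other compounds. The hepatocyte is the main site of all 5 families in the liver, and loss of drug-metabolising capacity during inflammation is a long-known trait of this organ.

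Libraries came from a CEL-Seq2 protocol, in which priming at the poly(A) tail yields reads from 3′ ends. The measure was the deposited scaled reads per base, called signal here, and depth was about 557000 to 2744000 reads per library, estimated from the smallest steps between the deposited values. At these depths 3 reads corresponded to a signal between 1.33 and 5.05, and counting error alone makes values near that level unreliable. Of the 83 members, 53 had a mean signal of at least 5 over the 36 libraries and were tested (14 Gst, 14 Ugt, 12 Ces, 10 Sult and 3 Fmo), 27 were below that level, and 3 (Ces1h, Gstt4 and Sult1c1) were listed at 0 in every library. The tested member nearest to the limit had a mean of 5.87 and the untested member nearest to it had 4.90. Since a gene could pass through its high groups alone, counts below refer to the tested members and not to the families as a whole. Tests were limma contrasts on log2(signal + 1) with Benjamini-Hochberg adjustment over all 8702 tested genes, a gene being called at an adjusted p under 0.05, and a log2 difference on this scale understates changes of low genes. The contrasts with 0 h at a given temperature share the same 0 h libraries. Replicate 4 at 30 °C and 24 h stood apart: it held the lowest value of its group for 35 of the 53 tested members, so counts of calls that use this group are also given without it, with the named members whose call was then lost. Replicate 5 at 22 °C and 12 h held the lowest value for 29. At 30 °C and 4 h, replicate 4 had a summed signal over all genes of 1717984, beside 1131556 to 1244969 in the others. Libraries of that group correlated from 0.775 to 0.931, and 0.775 was the lowest value within any group.

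LPS was followed by a broad fall of these enzymes that was called for few members at 4 h and for most at 12 h at both temperatures. At 22 °C, 0 tested members were called higher and 3 lower at 4 h, where 29.4% of all tested genes were called in either direction (15.8% higher, 13.6% lower). At 12 h, 1 was higher and 40 were lower (41.4% of all genes called, 20.7% higher and 20.6% lower). At 24 h 1 was higher and 43 were lower (37% called, 19% higher and 18% lower). At 30 °C, 1 member was higher and 4 were lower at 4 h (32.5% called, 17.8% higher and 14.6% lower). At that temperature 1 was higher and 43 were lower at 12 h (38.3% called, 19.3% higher and 18.9% lower), and 2 were higher and 36 lower at 24 h (29.7% called, 15.3% higher and 14.4% lower). The median log2 difference over the tested members was -1.20 at 12 h and -1.69 at 24 h at 22 °C, and -1.70 and -1.59 at 30 °C, while the median over all tested genes lay between -0.03 and 0.03 in those contrasts. Between 4 and 12 h, 1 rose and 37 fell at 22 °C (26.2% of all genes called, 11.9% higher and 14.4% lower), and 1 rose and 42 fell at 30 °C (30.2% called, 12.3% higher and 17.9% lower). A fall was called at 12 h at both temperatures for 37 of the 53, beside 14.2% of all genes. It was called in all 4 contrasts of 12 and 24 h with 0 h for 30, beside 6.99% of all genes. In a whole liver, fewer cells of a type and less RNA per cell cannot be told apart.

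**Figure D1:**
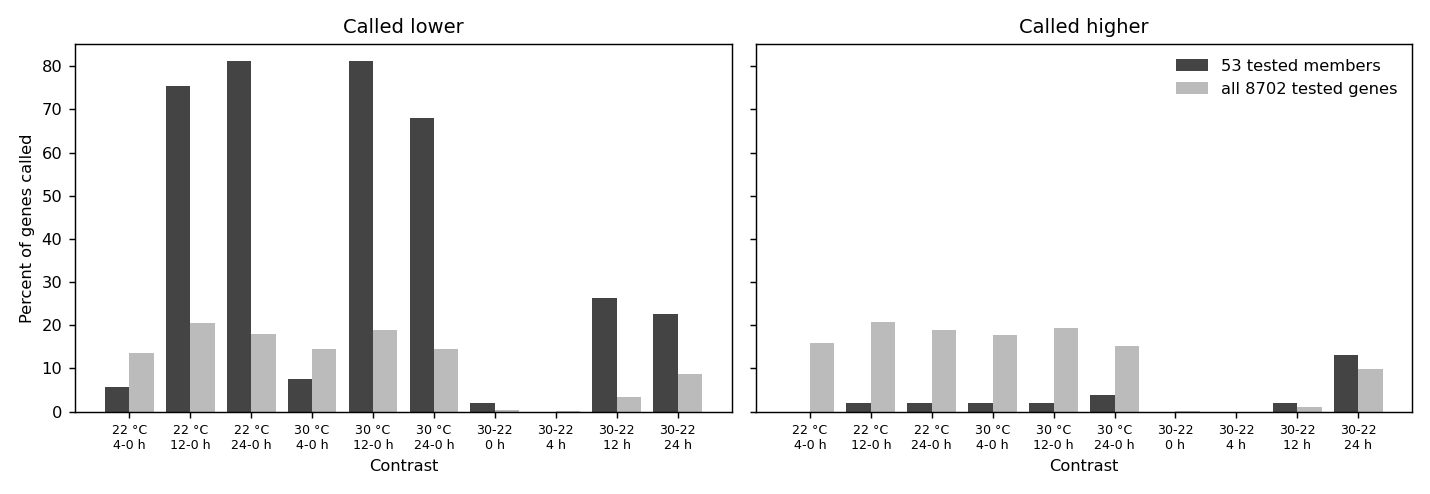
Percent of the 53 tested members (dark bars) and of all 8702 tested genes (light bars) called lower (left) or higher (right) in each contrast on the x axis, by limma at an adjusted p under 0.05. At 12 and 24 h after LPS between 67.9% and 81.1% of the members were called lower, and at 4 h at most 7.55% were.

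The family means, taken as the sum of the signal over all members of a family, took different courses. Summed Gst signal was 6663 ± 1219 (SD, n = 4) at 0 h at 22 °C, and the mean stood at 93.6% of that at 4 h, 40.2% at 12 h and 23.4% at 24 h. At 30 °C it was 9278 ± 1128 (n = 5) at 0 h and stood at 95.9%, 19.1% and 11.1%. Summed Ces signal stood at 97.4%, 48.0% and 35.96% of its 0 h mean at 22 °C and at 100.9%, 37.3% and 30.4% at 30 °C. These 2 families were lower at 24 h than at 12 h at both temperatures in these means. Summed Ugt signal stood at 82.7%, 39.4% and 25.6% at 22 °C and at 85.4%, 26.7% and 33.3% at 30 °C. Summed Sult signal stood at 75.9%, 51.9% and 40.0% at 22 °C and at 63.9%, 34.4% and 40.7% at 30 °C. No test was made of these sums, because they were formed over chosen genes. Nor were they divided by the summed signal of the whole library, which was not constant. At 22 °C that total was 1013502 to 1086391 at 0 h and 1261953 to 1362724 at 4 h. At 30 °C it was 902390 to 956735 at 0 h, 1131556 to 1717984 at 4 h and 828054 to 917457 at 12 h. As a share of the library, the sums at 4 h would thus be lower than the percentages given.

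**Figure D2:**
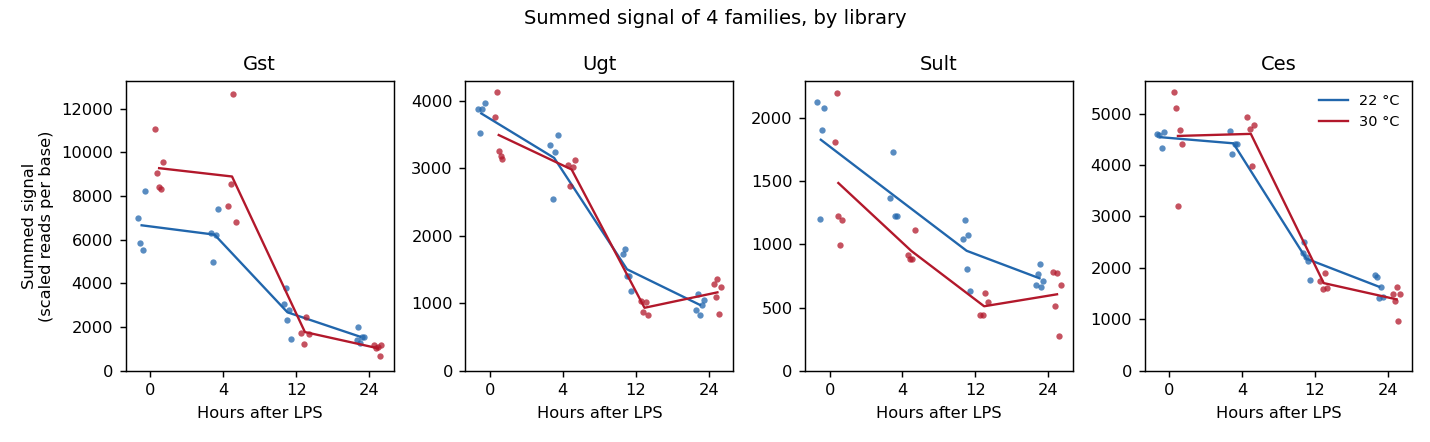
Summed signal (scaled reads per base, linear axis from 0) of all members of the Gst, Ugt, Sult and Ces families against hours after LPS; points are libraries, lines join group means, blue is 22 °C and red is 30 °C. Gst and Ces sums are lowest at 24 h at both temperatures, and the Gst sums at 0 h at 30 °C (8306 to 11080) lie above those at 22 °C (5539 to 8229).

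Gstm1 (chr3:108012255-108017973, minus strand), the mu-class enzyme that made up 65.2% of the summed Gst signal at 0 h at 22 °C and 74.5% at 30 °C, fell by 12 h and fell further at 30 °C. Its signal at 22 °C was 4506, 3869, 3570.3 and 5454 at 0 h, 2117, 2715, 1659.5, 1936 and 918 at 12 h and 986, 1453, 927, 1112 and 1035 at 24 h. At 30 °C it was 8502, 6304, 6397, 6129 and 7279 at 0 h, 1187, 800.1, 1855 and 1183 at 12 h and 450.4, 400.3, 401, 237 and 508 at 24 h. Every library at 24 h was below every library at 0 h of the same temperature, and the 24 h libraries at 30 °C (at most 508) were all below those at 22 °C (at least 927). The fall by 24 h was a log2 difference of -1.98 (SE 0.25, limma adjusted p = 9.62e-08) at 22 °C. At 30 °C the fall was a log2 difference of -4.15 (SE 0.24, limma adjusted p = 7.18e-16). The interaction, the difference between these falls, was a log2 difference of -2.17 (SE 0.35, limma adjusted p = 1.11e-04). On the deposited TPM column, Gstm1 had the highest 0 h mean of all members (4908 at 22 °C and 7854 at 30 °C), with Ces1c next at 1529 and 1595.

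Gsta4, Gstm3 and Gsta2 were also lower at 30 °C than at 22 °C at 24 h. Gsta4 (chr9:78182774-78209349, plus strand), whose product conjugates 4-hydroxynonenal, a product of lipid peroxidation, read 10.1, 25.6, 21.9, 17.6 and 8.22 at 24 h at 22 °C and 3.00, 3.65, 0, 2.49 and 2.18 at 30 °C, after 73.8, 70.3, 68.6, 48.6 and 62.0 at 0 h at 30 °C. The 24 h groups did not overlap, and the temperature difference at 24 h was a log2 difference of -2.49 (SE 0.35, limma adjusted p = 4.03e-06). Gstm3 read 12.2, 16.6, 7.67, 15.8 and 0 at 24 h at 22 °C and 2.22, 1.27, 0, 1.04 and 0 at 30 °C (log2 difference -2.23, SE 0.52, limma adjusted p = 0.00217). These groups overlap because replicate 5 at 22 °C was listed at 0, and the call ended when the 24 h groups were fitted alone (adjusted p = 0.0592). Gsta2, for which 75.5% of the 31-base words of the 3′ end are shared with other genes, read 9.27, 16.1, 5.81, 2.84 and 4.66 at 22 °C and was listed at 0 in all but replicate 2 (1.06) at 30 °C (log2 difference -2.72, SE 0.49, limma adjusted p = 1.29e-04). Values this close to 3 reads make the size of the Gsta2, Gsta4 and Gstm3 differences depend on the pseudocount: with 5 in place of 1 they were -1.21, -1.53 and -1.23.

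Gsta3 (chr1:21240589-21265661, plus strand), the alpha-class enzyme that detoxifies aflatoxin epoxide in mice, was the next most abundant Gst by signal and fell at both temperatures. It read 1432, 995, 1082 and 1532 at 0 h at 22 °C and 91.5, 134, 83.4, 70.5 and 70.8 at 24 h (log2 difference -3.81, SE 0.27, limma adjusted p = 3.27e-13). In the 30 °C libraries it read 1308, 1533, 1046, 1115 and 1139.8 at 0 h and 65.2, 56.9, 71.2, 23.9 and 59.6 at 24 h (log2 difference -4.52, SE 0.26, limma adjusted p = 5.63e-16). The falls did not overlap their 0 h groups, and their difference was not called (log2 difference -0.71, SE 0.37, limma adjusted p = 0.261). At 12 h, Gsta3 was lower at 30 °C (log2 difference -1.30, SE 0.27, limma adjusted p = 0.00347) with 438, 424, 208, 388 and 141 at 22 °C against 120.4, 96.0, 163 and 103 at 30 °C. The groups overlapped through replicate 5 at 22 °C and replicate 3 at 30 °C, and fitted on the 12 h groups alone the adjusted p was 0.0516.

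Gstp1 (chr19:4035407-4037985, minus strand), the pi-class enzyme, went the other way at 30 °C. Its signal there was 253, 210.4, 177, 191 and 248 at 0 h, 122, 109.8, 130.2 and 125 at 12 h and 392, 362, 336, 258 and 329 at 24 h. At 22 °C it was 131, 113, 109 and 137 at 0 h, 54.6, 99.9, 75.8, 56.6 and 94.7 at 12 h and 71.7, 69.5, 41.6, 78.2 and 119 at 24 h. Gstp1 thus fell by 12 h at 22 °C (log2 difference -0.71, SE 0.22, limma adjusted p = 0.0102) and at 30 °C (log2 difference -0.81, SE 0.22, limma adjusted p = 0.00396). There it then rose from 12 to 24 h (log2 difference 1.45, SE 0.22, limma adjusted p = 1.08e-05) to above every 0 h library. The temperature difference at 24 h was a log2 difference of 2.19 (SE 0.21, limma adjusted p = 5.24e-09) with no overlap, and the interaction was a log2 difference of 1.39 (SE 0.31, limma adjusted p = 0.00353). The 30 °C libraries were also above the 22 °C libraries at 0 h, without overlap, though that difference was not called (log2 difference 0.80, SE 0.22, limma adjusted p = 0.11). The rise above 0 h at 30 °C (log2 difference 0.63, SE 0.21, limma adjusted p = 0.0213) was lost without replicate 3 at 0 h or without replicate 1 at 24 h, with an adjusted p of at most 0.0608. Of the 3′ end of Gstp1, 84.0% of 31-base words also occur in Gstp2, so the assignment between these 2 genes is uncertain. Gstt2, a theta-class gene, was also higher at 30 °C at 24 h (log2 difference 0.77, SE 0.23, limma adjusted p = 0.015), a call lost without replicate 3 at 30 °C (adjusted p = 0.054).

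**Figure D3:**
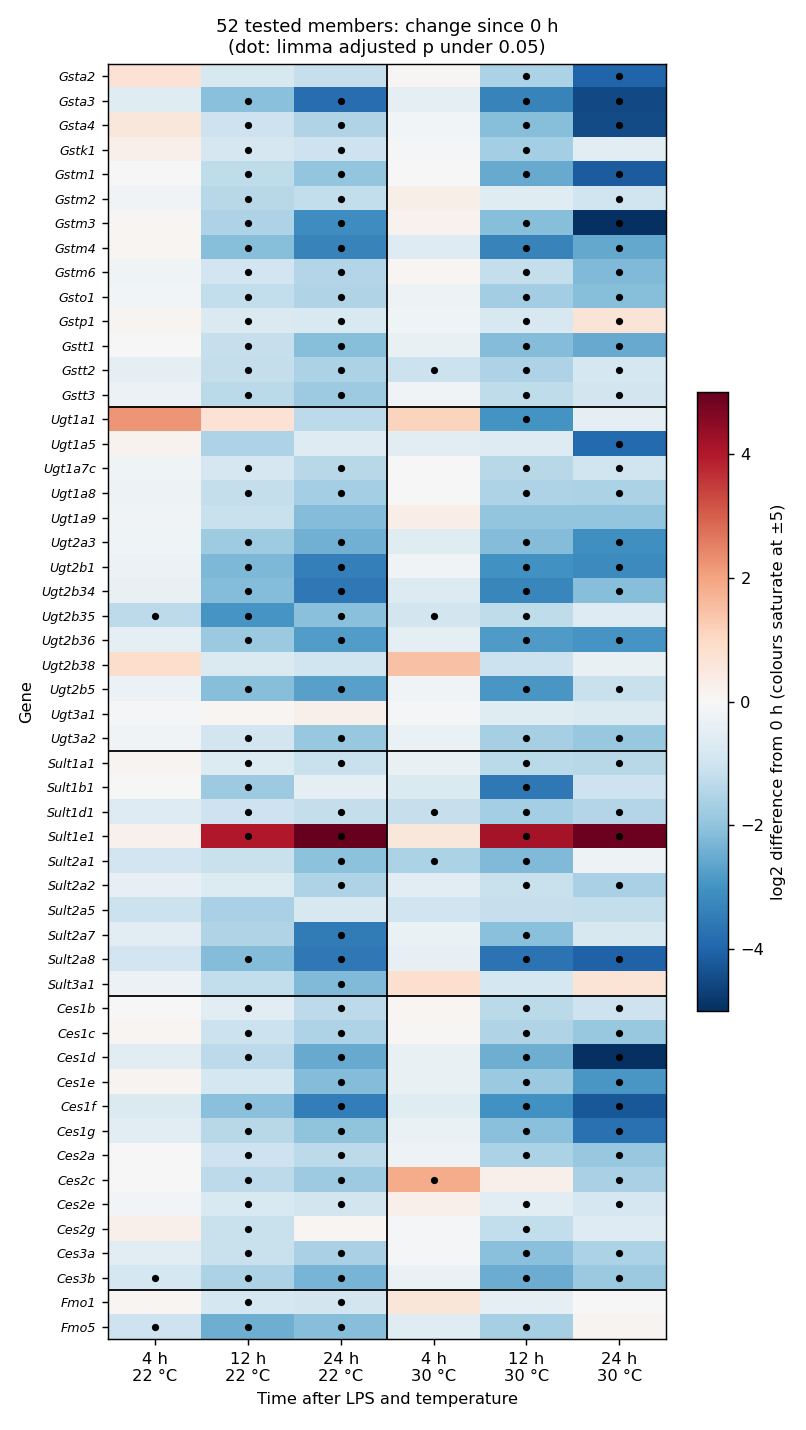
Log2 difference from 0 h of the same temperature for 52 of the 53 tested members (rows, grouped Gst, Ugt, Sult, Ces, Fmo) at 4, 12 and 24 h at 22 °C (left 3 columns) and 30 °C (right 3 columns); blue is lower, red is higher and a dot marks an adjusted p under 0.05. The 12 h and 24 h columns are mostly blue, Sult1e1 is red in all 4 of them, and Fmo5 is pale at 24 h at 30 °C.

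Among the Ugt genes, the Ugt2b cluster on chromosome 5, whose enzymes glucuronidate steroids and bile acids, divided at 24 h. Of 6 tested Ugt2b genes, 3 were called between temperatures at that time. Ugt2b38, named here to complete the tested genes, was not among them and was called in none of the 6 contrasts with 0 h. Ugt2b34, Ugt2b5 and Ugt2b35 were higher at 30 °C than at 22 °C, and no call was made for their neighbours Ugt2b1 and Ugt2b36. The stretches upstream of their RefSeq starts (250 bases, GRCm38.p6, 5′ to 3′ on the gene's own strand) are shown because these neighbours differ in that response; capitals mark AGGTCA, a core site bound by many nuclear receptors, where it occurs on either strand.
Ugt2b34 (chr5:86906938-86907187, minus strand): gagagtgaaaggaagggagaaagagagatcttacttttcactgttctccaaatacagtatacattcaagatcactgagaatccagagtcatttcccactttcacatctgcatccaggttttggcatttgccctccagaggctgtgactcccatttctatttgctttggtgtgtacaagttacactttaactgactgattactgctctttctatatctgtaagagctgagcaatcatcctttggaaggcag
Ugt2b5 (chr5:87140341-87140590, minus strand): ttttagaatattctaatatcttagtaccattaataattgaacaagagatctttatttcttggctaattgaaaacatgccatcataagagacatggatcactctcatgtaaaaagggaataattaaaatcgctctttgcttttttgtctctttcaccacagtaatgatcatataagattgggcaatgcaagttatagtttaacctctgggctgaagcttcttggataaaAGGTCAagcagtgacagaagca
Ugt2b35 (chr5:87000610-87000859, plus strand): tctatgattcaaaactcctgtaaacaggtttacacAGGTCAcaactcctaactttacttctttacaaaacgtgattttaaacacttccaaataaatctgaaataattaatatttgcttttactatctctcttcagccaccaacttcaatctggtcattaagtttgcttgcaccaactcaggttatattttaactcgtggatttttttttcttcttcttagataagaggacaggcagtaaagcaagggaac
Ugt2b1 (chr5:86926504-86926753, minus strand): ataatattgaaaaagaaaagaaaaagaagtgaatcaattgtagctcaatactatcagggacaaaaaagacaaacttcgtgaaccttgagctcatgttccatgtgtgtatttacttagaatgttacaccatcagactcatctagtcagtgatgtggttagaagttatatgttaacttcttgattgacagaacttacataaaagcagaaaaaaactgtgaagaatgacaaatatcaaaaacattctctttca
Ugt2b36 (chr5:87092556-87092805, minus strand): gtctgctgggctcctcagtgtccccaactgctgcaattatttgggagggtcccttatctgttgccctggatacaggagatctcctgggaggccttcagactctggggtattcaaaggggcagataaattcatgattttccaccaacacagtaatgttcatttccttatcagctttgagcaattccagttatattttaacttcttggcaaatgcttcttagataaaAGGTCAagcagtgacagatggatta

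AGGTCA begins 22 bases before the start of Ugt2b5, 25 bases before that of Ugt2b36 and 215 bases before that of Ugt2b35, and these letters are not in the windows of Ugt2b34 or Ugt2b1. Both the genes with the motif and those without it thus include a gene called higher at 24 h and a gene not called. Ugt2b5 and Ugt2b36 are identical at 64.0% of the 250 positions in a global alignment with gaps, and the 10 pairs range from 50.4% to 64.0%. Over all 81 RefSeq promoters of 69 members (250 bases before to 50 after the start), 16 hold AGGTCA (19.8%), beside 16.3% of all 32851 promoters. TGACNNNGC, the core of the antioxidant response element bound by the Nrf2 protein, is in 3 of the 81 (3.70%), beside 12.4% of all. Both motifs were searched on both strands, and a match describes letters and not binding.

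Ugt2b34 (chr5:86889767-86906937, minus strand) read 506, 397, 389.5 and 408 at 0 h at 22 °C, 138, 175, 91.8, 64.0 and 51.9 at 12 h and 29.2, 50.8, 17.3, 26.0 and 68.5 at 24 h. At 30 °C it read 461, 565, 594, 310.4 and 394 at 0 h, 39.4, 47.4, 58.0 and 43.6 at 12 h and 102, 102, 170.2, 44.2 and 149 at 24 h. It was thus still falling from 12 to 24 h at 22 °C (log2 difference -1.44, SE 0.32, limma adjusted p = 0.00215). In contrast, it rose at 30 °C (log2 difference 1.13, SE 0.33, limma adjusted p = 0.014), a call lost without replicate 3 at 24 h (adjusted p = 0.0534), and the 24 h groups overlapped through replicate 4 at 30 °C. The temperature difference at 24 h was a log2 difference of 1.57 (SE 0.32, limma adjusted p = 4.91e-04), and without that replicate it was 1.87. Its interaction (log2 difference 1.47, SE 0.46, limma adjusted p = 0.0395) lost its call in most fits that left out a library of its 4 groups, with an adjusted p of up to 0.0915 in those fits.

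Ugt2b5 (chr5:87124960-87140318, minus strand) was also higher at 30 °C at 24 h, without overlap, with 45.3, 26.5, 21.9, 72.5 and 67.5 at 22 °C and 134, 140.3, 146, 83.3 and 132 at 30 °C, after 23.4, 46.5, 32.8 and 41.2 at 12 h at 30 °C. From 12 to 24 h it rose at 30 °C (log2 difference 1.81, SE 0.26, limma adjusted p = 3.29e-06) and was not called at 22 °C (log2 difference -0.62, SE 0.24, limma adjusted p = 0.105). Its temperature difference at 24 h was a log2 difference of 1.55 (SE 0.24, limma adjusted p = 2.18e-05) and its interaction a log2 difference of 1.63 (SE 0.36, limma adjusted p = 0.00315). Ugt2b35 (chr5:87000860-87013275, plus strand) differed in timing: it had already fallen at 4 h at both temperatures (log2 difference -1.31, SE 0.31, limma adjusted p = 0.00122 at 22 °C, and log2 difference -0.91, SE 0.29, limma adjusted p = 0.0154 at 30 °C). The call at 30 °C was lost without replicate 2 at 4 h (adjusted p = 0.0623). It was the single member called higher at 30 °C at 12 h (log2 difference 1.41, SE 0.29, limma adjusted p = 0.00338). That call was lost when the 12 h groups were fitted alone (limma adjusted p = 0.0530). At 12 h Ugt2b35 read 20.5, 19.8, 22.7, 7.74 and 33.7 at 22 °C and 67.8, 63.6, 45.5 and 37.6 at 30 °C, with no overlap. At 24 h it read 18.6, 29.7, 35.1, 39.7 and 69.1 at 22 °C and 93.0, 81.2, 76.8, 80.5 and 79.9 at 30 °C (log2 difference 1.20, SE 0.28, limma adjusted p = 0.00203), again with no overlap.

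Ugt2b1 and Ugt2b36 stayed low to 24 h at both temperatures. Ugt2b1 read 37.3, 43.1, 11.0, 15.0 and 37.9 at 24 h at 22 °C and 31.2, 26.5, 29.0, 12.5 and 23.1 at 30 °C, where its 0 h values were 236, 274, 194, 251 and 159 at 0 h. Its temperature difference at 24 h was a log2 difference of -0.11 (SE 0.32, limma adjusted p = 0.857), with a 95% interval from -0.76 to 0.55. For Ugt2b36 the difference was a log2 difference of -0.11 (SE 0.23, limma adjusted p = 0.799), with an interval from -0.57 to 0.35. The Ugt2b sum, 1432 ± 109 (SD, n = 4) at 0 h at 22 °C and 1351 ± 179 (n = 5) at 30 °C, was 196 ± 60.7 (n = 5) and 394 ± 89.5 (n = 5) at 24 h.

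The Ugt1a genes on chromosome 1, among them Ugt1a1, which conjugates bilirubin, share their last exons, and every Ugt1a member except Ugt1a7c shares at least 92% of the 31-base words of its 3′ end with other genes. Reads from 3′ ends therefore cannot divide these genes well, and their sum is the measure that holds. The Ugt1a sum was 1575 ± 214 (SD, n = 4) at 0 h at 22 °C, and its mean stood at 86.7% of that at 4 h, 49.5% at 12 h and 35.8% at 24 h. At 30 °C it was 1455 ± 201 (n = 5) and stood at 100.2%, 36.01% and 40.7%. At 24 h the temperatures overlapped (454 to 700 at 22 °C and 533 to 663 at 30 °C). The third Ugt family uses sugars other than glucuronic acid; its Ugt3a2 fell at both temperatures by 12 h. Ugt3a1 was called in none of the 6 contrasts with 0 h, although it was lower at 30 °C than at 22 °C at 24 h (log2 difference -1.24, SE 0.33, limma adjusted p = 0.00791; 0.0663 when those groups were fitted alone).

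Sult1e1 (chr5:87575969-87591594, minus strand), the oestrogen sulfotransferase, was called higher than at 0 h at 12 and 24 h at both temperatures. At 22 °C its signal was 3.69, 0, 2.54 and 2.83 at 0 h, 5.51, 2.57, 3.96 and 0 at 4 h, 58.7, 35.6, 57.8, 36 and 40.0 at 12 h and 115, 140.3, 213, 132 and 138 at 24 h. Its values at 30 °C were 0, 0, 1.68, 0 and 0 at 0 h, 0.440, 1.20, 1.09 and 0.640 at 4 h, 15.7, 18.7, 25.6 and 24.3 at 12 h and 44.3, 47.5, 39.1, 19.2 and 35.2 at 24 h. All 12 h and 24 h libraries were above all 0 h and 4 h libraries, and 0 h values were at or under 3 reads in 4 of 4 libraries at 22 °C and 5 of 5 at 30 °C. The rise by 24 h was a log2 difference of 5.68 (SE 0.42, limma adjusted p = 8.37e-13) at 22 °C. At 30 °C the rise was a log2 difference of 4.90 (SE 0.40, limma adjusted p = 6.84e-12). Since the rise starts near 0, its size depends on the pseudocount, and with 5 in place of 1 it was 4.39 and 2.94. At 24 h Sult1e1 was lower at 30 °C than at 22 °C without overlap (log2 difference -1.995, SE 0.40, limma adjusted p = 4.43e-04), and the interaction was not called (log2 difference -0.78, SE 0.58, limma adjusted p = 0.451). Its upstream stretch holds AGGTCA on the opposite strand, printed as TGACCT, beginning 113 bases before the start.
Sult1e1 (chr5:87591612-87591861, minus strand): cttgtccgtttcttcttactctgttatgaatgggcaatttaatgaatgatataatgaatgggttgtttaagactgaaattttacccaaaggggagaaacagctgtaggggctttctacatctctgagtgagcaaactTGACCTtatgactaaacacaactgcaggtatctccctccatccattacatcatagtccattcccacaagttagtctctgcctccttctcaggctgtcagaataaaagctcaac

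Of the 10 tested sulfotransferases, 4 fell by 12 h and 7 by 24 h at 22 °C, where 20.6% and 18% of all genes were called lower. At 30 °C these counts were 7 and 4, beside 18.9% and 14.4% of all genes. Sult1a1, a phenol sulfotransferase, made up 24.4% of the summed Sult signal at 0 h at 22 °C, beside 31.7% for Sult2a2. It read 468, 658, 534, 338 and 353 at 0 h and 213, 195, 223, 92.1 and 193 at 24 h at 30 °C (log2 difference -1.37, SE 0.21, limma adjusted p = 2.79e-06). Sult1d1, which sulfates catecholamines, was already lower at 4 h at 30 °C (log2 difference -1.15, SE 0.24, limma adjusted p = 2.64e-04); it was named after its values were seen. Sult1b1, which acts on thyroid hormones, fell to 2.21, 1.70, 5.58 and 0 at 12 h at 30 °C, against 10.8, 8.90, 12.8, 14.5 and 8.19 at 22 °C (log2 difference -2.10, SE 0.45, limma adjusted p = 0.0039). The 12 h groups did not overlap, and from 12 to 24 h Sult1b1 rose at 30 °C (log2 difference 2.54, SE 0.45, limma adjusted p = 6.85e-05). At 22 °C its rise was called (log2 difference 1.32, SE 0.42, limma adjusted p = 0.0385) but was lost in 10 alternative fits. These were the fits with a pseudocount of 0.5, with no filter and with the groups alone, and those without replicate 1, 2, 3 or 5 at 12 h or 2, 3 or 5 at 24 h (adjusted p of up to 0.144).

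The Sult2a genes on chromosome 7 sulfate bile acids and dehydroepiandrosterone. Sult2a8 read 301, 287, 302 and 197 at 0 h and 23.1, 21.0, 19.2, 20.3 and 26.3 at 24 h at 22 °C, and 143, 182, 210.4, 152 and 203 at 0 h and 13.8, 6.26, 19.2, 3.63 and 12.3 at 30 °C. It was lower at 30 °C than at 22 °C at 12 h (log2 difference -2.12, SE 0.36, limma adjusted p = 3.64e-04). It was lower at 24 h as well (log2 difference -1.11, SE 0.34, limma adjusted p = 0.0185), with a gap of 19.21 to 19.24 between the groups, but the 24 h call was lost without replicate 2 or replicate 4 at 30 °C (adjusted p = 0.0816 without replicate 4). Sult2a1 varied widely within groups, 315, 65.2, 337 and 261 at 0 h at 22 °C and 248, 288, 44.0, 71.2 and 97.4 at 30 °C. In the 30 °C groups it fell by 12 h and rose from 12 to 24 h (log2 difference 1.98, SE 0.59, limma adjusted p = 0.0152). The rise was lost without replicate 1 (adjusted p = 0.062) or replicate 2 (adjusted p = 0.129, log2 difference 1.31) of the 12 h libraries. Sult2a7 had an interaction at 24 h (log2 difference 2.69, SE 0.87, limma adjusted p = 0.0468). Its libraries at 24 h were at 2.64, 0, 0, 0 and 4.60 at 22 °C and 5.49, 0, 3.28, 0 and 2.28 at 30 °C, at or under 3 reads in 4 of 5 and 3 of 5 libraries. The Sult2a7 call was lost in most fits that left out a library of its 4 groups.

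Carboxylesterases fell in both Ces1 and Ces2/Ces3 clusters of chromosome 8. Each of the 4 contrasts of 12 and 24 h with 0 h called 11 of the 12 tested lower, though not the same 11 each time. Of all genes 20.6% and 18% were called lower at 12 and 24 h at 22 °C, and 18.9% and 14.4% at 30 °C. Ces1c (chr8:93099015-93131283, minus strand), the esterase that the mouse liver secretes into plasma, made up 59.6% of the summed Ces signal at 0 h at 22 °C and 61.3% at 30 °C. It read 2869, 2645, 2522 and 2786 at 0 h and 1042, 1021, 880.5, 869 and 792 at 24 h at 22 °C (log2 difference -1.56, SE 0.14, limma adjusted p = 3.34e-11). At 30 °C it read 3349, 3384, 1894, 2779 and 2634 at 0 h and 847, 765, 833, 559 and 762 at 24 h (log2 difference -1.88, SE 0.13, limma adjusted p = 9.32e-14). No 24 h library reached a 0 h library of its temperature, and a difference between temperatures in this fall was not called (log2 difference -0.32, SE 0.19, limma adjusted p = 0.314, with a 95% interval of the interaction from -0.70 to 0.06).

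Ces1d (chr8:93166068-93197838, minus strand), a triacylglycerol hydrolase of the endoplasmic reticulum that takes part in lipoprotein assembly, fell to the detection limit at 30 °C. Its signal at 30 °C was 143, 144, 41.0, 109 and 125 at 0 h, 20.8, 14.5, 23.8 and 14.5 at 12 h and 0.920, 0.360, 0.880, 0.580 and 1.78 at 24 h. At 22 °C it was 84.7, 85.2, 70.9 and 86.7 at 0 h, 28.6, 47.4, 35.9, 31.8 and 21.8 at 12 h and 18.2, 21.6, 11.0, 11.2 and 9.27 at 24 h. The 24 h groups did not overlap, and at 30 °C 4 of 5 libraries were at or under the level of 3 reads. The temperature difference at 24 h was a log2 difference of -2.98 (SE 0.27, limma adjusted p = 1.90e-09), and the interaction was a log2 difference of -3.31 (SE 0.40, limma adjusted p = 2.34e-06). With a pseudocount of 5 they were -1.67 and -1.99, both still called. Ces1g, another lipid-handling esterase of the cluster, read 73.9, 99.7, 42.5, 111 and 56.9 at 24 h at 22 °C and 18.7, 21.1, 49.3, 3.83 and 13.6 at 30 °C (log2 difference -2.09, SE 0.35, limma adjusted p = 4.95e-05), with overlap through replicate 3 of each group. Ces1f was called lower at 24 h at both temperatures (log2 difference -3.46, SE 0.33, limma adjusted p = 2.51e-10 at 22 °C, and log2 difference -4.25, SE 0.31, limma adjusted p = 4.95e-13 at 30 °C). Its temperature difference was not called (log2 difference -0.74, SE 0.31, limma adjusted p = 0.0953).

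Ces2c (chr8:104847068-104854483, plus strand) was the single member called between temperatures at 0 h. It read 80.2, 76.6, 132 and 134 at 22 °C and 21.1, 43.9, 24.1, 14.3 and 12.9 at 30 °C, with no overlap (log2 difference -2.22, SE 0.38, limma adjusted p = 0.00157). At 4 h at 30 °C it read 94.0, 71.1, 73.5 and 80.7 at 4 h, above all 0 h libraries at that temperature (log2 difference 1.86, SE 0.38, limma adjusted p = 2.38e-04), and it was the single member called higher at 4 h. By 24 h it was at 35.9, 25.1, 29.0, 35.1 and 19.3 at 22 °C and 7.09, 2.45, 14.8, 7.88 and 4.13 at 30 °C, again with no overlap (log2 difference -2.01, SE 0.36, limma adjusted p = 1.37e-04). Of the 31-base words of its 3′ end, 44.7% also occur in other genes, and 41.3% in the pseudogene Ces2d-ps. Ces3a and Ces3b, neighbouring liver esterases, were lower at 30 °C than at 22 °C at 12 h. Ces3b read 83.4, 62.1, 44.6, 29.7 and 41.0 at 22 °C and 8.54, 18.1, 15.1 and 9.28 at 30 °C (log2 difference -1.92, SE 0.32, limma adjusted p = 3.43e-04). Ces3a read 97.5, 65.8, 120.4, 75.8 and 103 at 22 °C and 29.1, 31.5, 31.6 and 24.3 at 30 °C (log2 difference -1.61, SE 0.31, limma adjusted p = 0.00178). Neither pair of groups overlapped at 12 h, and neither gene was called between temperatures at 24 h. Of the 31-base words of their 3′ ends, 50.2% of those of Ces3a occur in Ces3b and 26.9% of those of Ces3b in Ces3a. The assignment of reads between these genes is thus partly uncertain.

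Among the flavin monooxygenases, Fmo5 fell by 12 h at both temperatures and, at 30 °C, rose from 12 to 24 h (log2 difference 1.82, SE 0.34, limma adjusted p = 1.63e-04). Fmo5 (chr3:97628804-97655282, plus strand), which acts as a Baeyer-Villiger oxygenase, read 374, 285, 307 and 449 at 0 h at 22 °C, 219, 163, 187 and 123 at 4 h, 91.9, 63.0, 54.0, 64.8 and 51.8 at 12 h and 53.7, 37.6, 42.1, 144 and 246 at 24 h. In the 30 °C libraries it read 280.3, 347, 252, 268 and 275 at 0 h, 207, 204, 159 and 169.8 at 4 h, 60.6, 136, 118 and 62.8 at 12 h and 317, 242, 287, 380.1 and 367 at 24 h. Its fall by 12 h was called at both temperatures, and its difference from 0 h at 24 h at 30 °C was a log2 difference of 0.15 (SE 0.32, limma adjusted p = 0.766), which was not called. The 24 h groups overlapped by replicate 5 at 22 °C (245.6) over replicate 2 at 30 °C (241.9). The temperature difference at 24 h was a log2 difference of 1.98 (SE 0.32, limma adjusted p = 3.23e-05) and the interaction a log2 difference of 2.28 (SE 0.47, limma adjusted p = 0.00179).

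Fmo1 fell at 22 °C by 12 h (log2 difference -0.87, SE 0.33, limma adjusted p = 0.0362) and was lower at 24 h (log2 difference -0.93, SE 0.33, limma adjusted p = 0.0261). Both calls were lost in several fits, among them those without replicate 1 or 3 at 0 h (adjusted p of up to 0.171 over all alternatives). At 30 °C it was called in none of the 3 contrasts with 0 h, though it was lower at 12 h than at 4 h (log2 difference -1.08, SE 0.35, limma adjusted p = 0.0184), a call lost in 5 alternative fits.

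Between temperatures, 1 tested member was called at 0 h, and it was lower at 30 °C (0.506% of all genes called, 0.0919% higher and 0.414% lower). At 4 h 0 were called (0.207% of all genes, 0.023% higher and 0.184% lower). At 12 h 1 was higher and 14 were lower at 30 °C (4.26% called, 0.977% higher), and at 24 h 7 were higher and 12 lower (18.6% called). At 4 h, limma gave 6 members an unadjusted p under 0.05. At 12 h the 14 lower were spread over Ugt (5), Gst (3), Sult (3) and Ces (3), against 3.29% of all genes called lower, and 5 of the 15 calls held in every alternative fit. The count was 8 without replicate 2 at 22 °C and 9 without replicate 2 or without replicate 4 at 30 °C. The interaction at 12 h, which asks whether the change since 0 h differed, was called by limma for 0 members, with 22 at an unadjusted p under 0.05 (0.276% of all genes called, 0.0689% higher and 0.207% lower). The interaction at 4 h was called by limma for 0 members, with 1 at an unadjusted p under 0.05 (0.0115% of all genes called, all of them lower). A deeper fall at 30 °C by 12 h was thus not shown gene by gene. The median of the 12 h interaction was a log2 difference of -0.665 over the 53 tested members, 42 of them negative, and -0.033 over all tested genes. No test was made of these medians. Shares of all genes at a limma unadjusted p under 0.05 are not given here, so the 6, 22 and 1 members have none beside them.

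At 24 h the 12 lower members were 6 Gst (Gsta2, Gsta3, Gsta4, Gstm1, Gstm3 and Gstm6), 3 Ces (Ces1d, Ces1g and Ces2c), Sult1e1, Sult2a8 and Ugt3a1. The 7 higher included Gstp1, Gstt2, Ugt2b34, Ugt2b35, Ugt2b5 and Fmo5, and 14 of these 19 calls held in every alternative fit. Without replicate 4 at 30 °C there were 10 higher and 10 lower, and Gsta3 (adjusted p = 0.182) and Sult2a8 were no longer called. Also without it, 38 members were called at 24 h against 0 h at 30 °C, the 24 h interaction had 8 higher and 5 lower, and from 12 to 24 h 11 rose and 11 fell, with the rise of Gstt2 no longer called (adjusted p = 0.071). With all libraries, 9.93% of all genes were called higher and 8.71% lower at 24 h. In that fit the members called higher, 13.2%, were near the share over all genes, and those called lower, 22.6%, were above it. Shares over all genes without replicate 4 are not given here, so the counts without it cannot be read in that way. The interaction at 24 h was called for 7 higher and 5 lower (8.95% of all genes called, 5.07% higher and 3.88% lower). The higher included Fmo5, Gstp1, Sult2a7, Ugt2b34, Ugt2b35 and Ugt2b5, and the lower were Ces1d, Ces1g, Gsta2, Gsta4 and Gstm1, and 7 of the 12 calls held in every alternative fit. From 12 to 24 h at 30 °C, 9 members rose and 12 fell (21.1% of all genes called, 11.6% higher and 9.52% lower). At 22 °C 4 rose and 14 fell (10.6% called, 4.02% higher and 6.6% lower). The 9 that rose at 30 °C included Fmo5, Gstk1, Gstp1, Gstt2, Sult1b1, Sult2a1, Ugt2b34 and Ugt2b5, and each of the 9 had been called lower at 12 h.

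**Figure D4:**
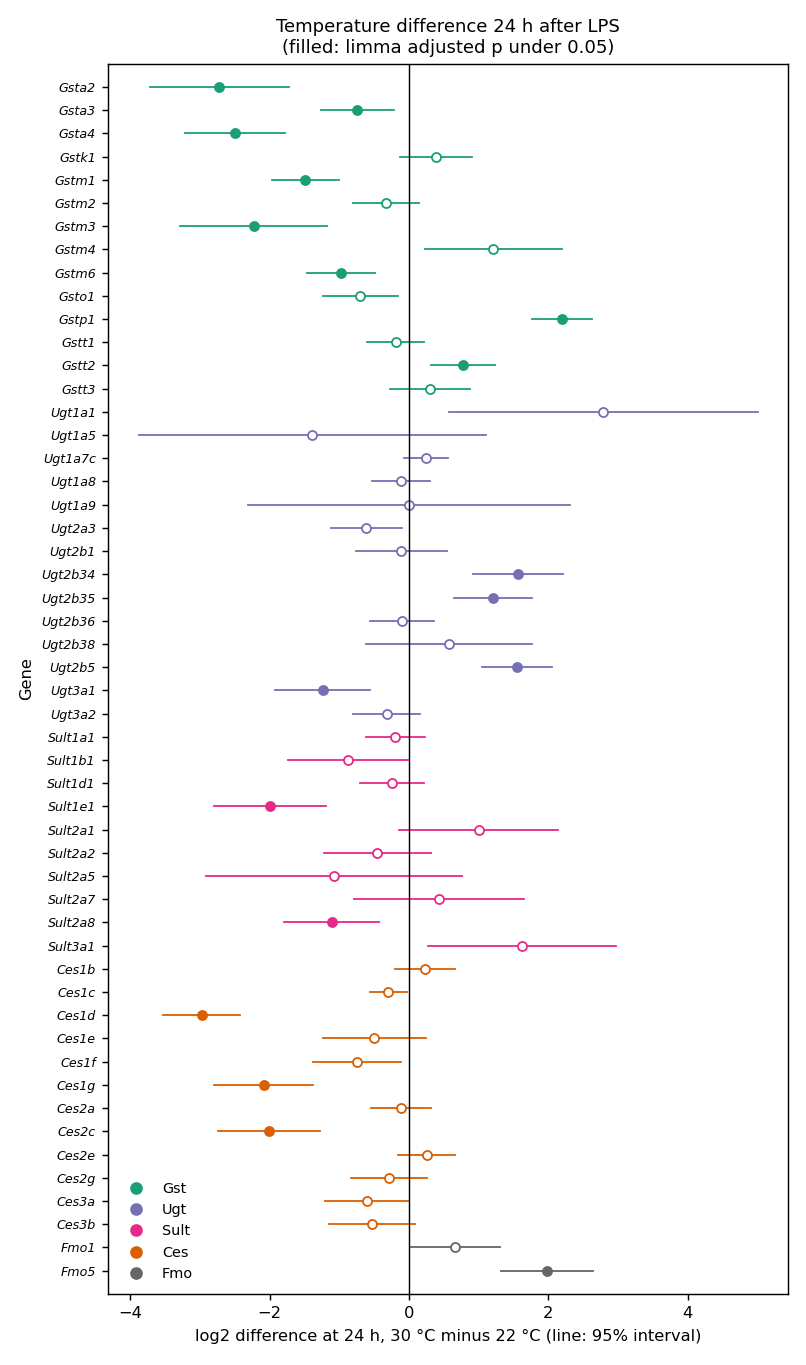
Log2 difference at 24 h after LPS, 30 °C minus 22 °C, for 52 of the 53 tested members (rows, coloured by family), with lines for 95% intervals and filled points for an adjusted p under 0.05. Gstp1, Fmo5 and the 3 called Ugt2b genes lie to the right of 0, and Ces1d, Gsta2, Gsta4 and Gstm3 lie furthest to the left among the called members.

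**Figure D5:**
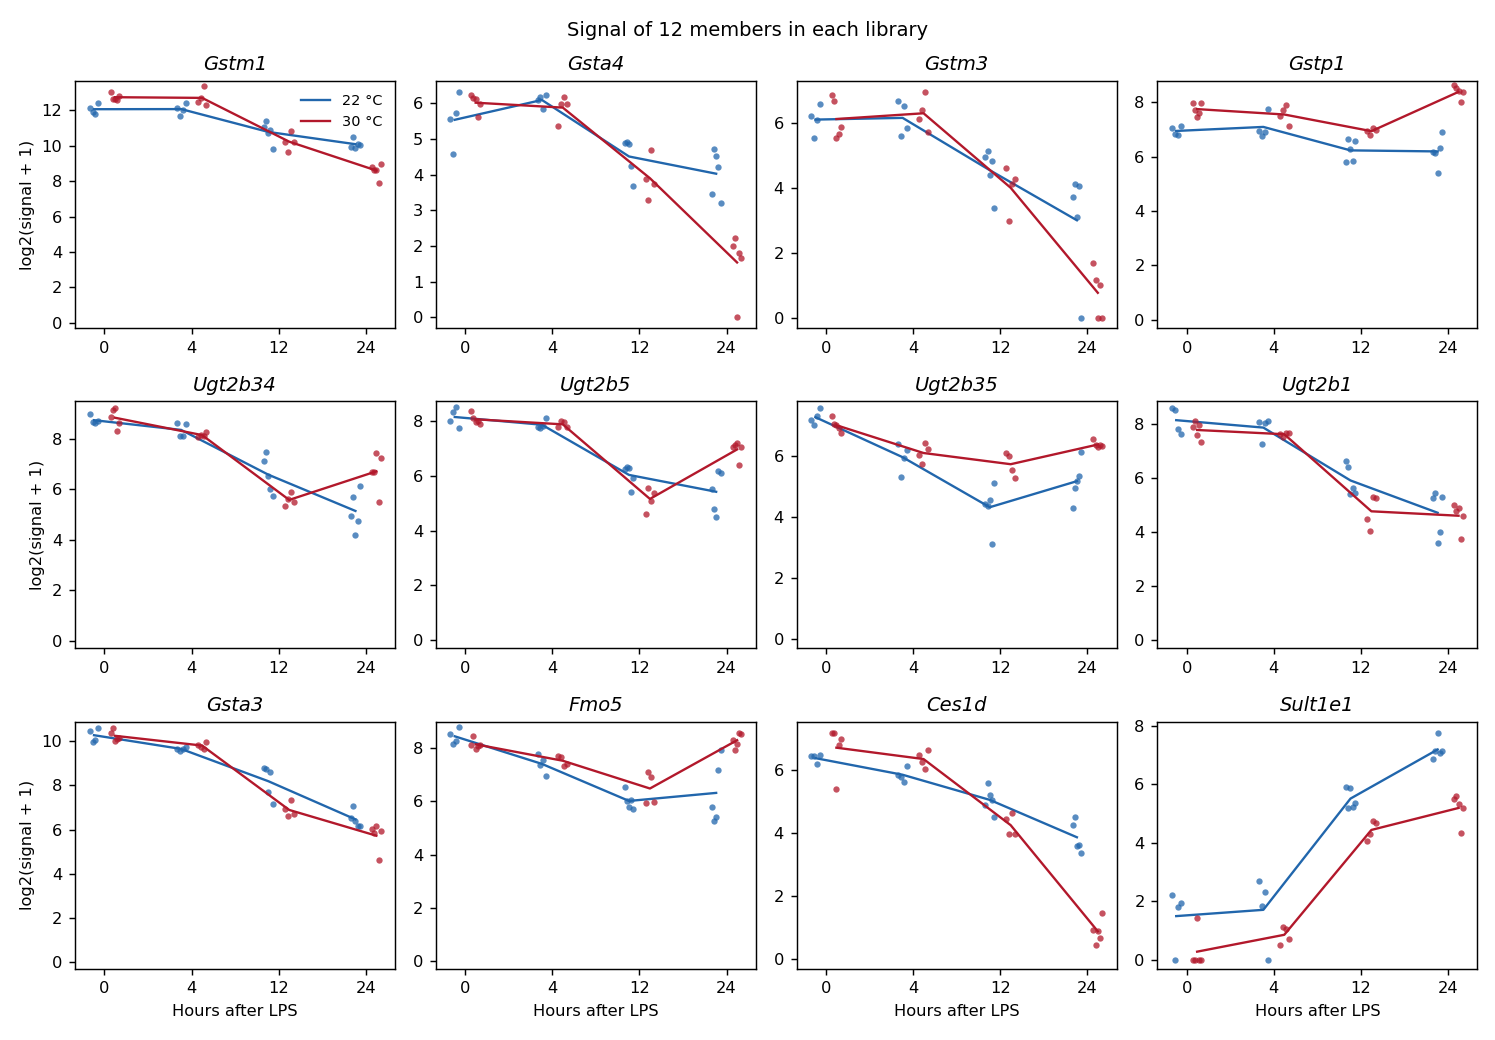
Signal of 12 members on a log2(signal + 1) scale against hours after LPS; points are libraries, lines join group means, blue is 22 °C and red is 30 °C. Gstm1, Gsta4, Gstm3 and Ces1d go on falling to 24 h at 30 °C, Gstp1, Ugt2b34, Ugt2b5 and Fmo5 rise from 12 to 24 h there, and Sult1e1 rises at both temperatures.

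Genes of linked steps were measured beside the enzymes. At 12 h 20.7% of all tested genes were called higher and 20.6% lower at 22 °C, and 19.3% and 18.9% at 30 °C. Of 15 tested genes for cofactor supply, 1 was higher and 7 were lower at 12 h at 22 °C, and 2 were higher and 7 lower at 30 °C. Papss2, which makes the sulfate donor, fell (log2 difference -2.25, SE 0.28, limma adjusted p = 7.38e-08 at 22 °C, and log2 difference -3.64, SE 0.28, limma adjusted p = 1.73e-12 at 30 °C). Gclc, the catalytic subunit for the first step of glutathione synthesis, fell as well (log2 difference -2.07, SE 0.22, limma adjusted p = 2.81e-09 and log2 difference -2.26, SE 0.22, limma adjusted p = 3.39e-10). Ugdh, which makes UDP-glucuronic acid, fell at 22 °C (log2 difference -1.68, SE 0.36, limma adjusted p = 2.53e-04) and missed the threshold at 30 °C (log2 difference -0.87, SE 0.36, limma adjusted p = 0.0524). Of 10 tested transporters that carry substrates or conjugates across the hepatocyte membrane, 7 were lower at 12 h at 22 °C and 10 at 30 °C, and 0 were higher. Abcc2, the canalicular exporter of conjugates, was among them (log2 difference -2.998, SE 0.34, limma adjusted p = 8.99e-09 and log2 difference -2.72, SE 0.34, limma adjusted p = 4.93e-08). Of 17 tested phase II enzymes from other families, 1 was higher and 9 lower at 12 h at 22 °C, and 1 was higher and 11 lower at 30 °C.

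At 24 h the calls in these lists were mostly higher at 30 °C, with 5 higher and 1 lower for transporters, 5 and 1 for cofactor supply, and 4 and 1 for the other phase II enzymes. The uptake carrier Slco1b2 was among the higher (log2 difference 2.75, SE 0.33, limma adjusted p = 3.11e-07). Among 15 tested regulators, 2 were higher and 1 was lower. In this contrast 9.93% of all tested genes were called higher and 8.71% lower, and the regulators were near those shares. Nr1i3, the nuclear receptor CAR that controls many of these enzymes, had a mean of 10.3 ± 8.73 (SD, n = 5) at 22 °C and 56.5 ± 13.6 (n = 5) at 30 °C, with 2 of the 5 libraries at 22 °C at or under 3 reads (log2 difference 2.70, SE 0.54, limma adjusted p = 4.27e-04). Nfe2l2, which encodes Nrf2, was lower (log2 difference -0.68, SE 0.15, limma adjusted p = 0.00114), and Nr1i2, the receptor PXR, was not called (log2 difference 0.06, SE 0.26, limma adjusted p = 0.9). Slco1b2 and these regulators were named after their values were seen.

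Markers of several cell types also changed after LPS, not all at the same times as the enzymes. The shares of all tested genes at 12 h were 20.7% higher and 20.6% lower at 22 °C, and 19.3% and 18.9% at 30 °C. Among 9 hepatocyte markers, 2 rose and 6 went down by 12 h at 22 °C, and at 30 °C these counts were 2 and 7. Alb was among the lower (log2 difference -0.94, SE 0.15, limma adjusted p = 4.07e-06 at 22 °C, and log2 difference -1.44, SE 0.15, limma adjusted p = 9.49e-10 at 30 °C). Their summed signal, which includes Alb, ranged from 34410 to 44490 at 0 h and 50570 to 61240 at 12 h at 22 °C, and from 31030 to 49440 and 41840 to 48630 at 30 °C. The sum also includes Fgb, called higher at 24 h at 30 °C (log2 difference 2.83, SE 0.11, limma adjusted p = 1.49e-20). It is therefore no measure of the number of hepatocytes. Of the 9 Kupffer cell markers, 1 was higher and 4 were lower at 12 h at 22 °C, and 1 and 5 at 30 °C. Their sums were 188 to 248 at 0 h and 57.1 to 95 at 12 h at 22 °C, and 218 to 293 and 66.4 to 81.1 at 30 °C. Of the 10 neutrophil and monocyte markers 4 were tested, and 2 rose at 22 °C and 3 at 30 °C by 12 h. Their sums were 23.7 to 33.1 at 0 h and 207 to 296 at 12 h at 22 °C, and 31.1 to 60.0 and 317 to 517 at 30 °C. Mpo and Elane were listed at 0 in all 12 h libraries. At 4 h 15.8% of all genes were called higher and 13.6% lower at 22 °C, and 17.8% and 14.6% at 30 °C. Of 8 tested markers of sinusoidal endothelium, 1 was higher and 7 were lower as early as 4 h at 22 °C, and 1 and 4 at 30 °C, when few of the enzymes were called. At 12 h the counts were 1 and 5, and 1 and 4. Their sums were 274 to 385 at 0 h, 95.5 to 153 at 4 h and 118 to 207 at 12 h at 22 °C. At 30 °C they were 239 to 359, 105 to 189 and 82.1 to 160. Of 6 tested stellate cell markers, 0 were higher and 2 lower at 12 h at both temperatures. Of 2 tested cholangiocyte markers, 1 was higher at 12 h at 22 °C and 2 were lower at 30 °C. At 24 h, 5 of 8 tested markers of sinusoidal endothelium were higher at 30 °C (sums of 199 to 284, against 109 to 243 at 22 °C), and 2 hepatocyte markers, Cps1 and Hpd, were higher with 0 lower. Over all genes 9.93% were higher and 8.71% lower in this contrast. The part of cell composition in the changes of the enzymes was not tested.

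Sult2a1 and Sult3a1 are known to be female-biased in mouse liver, and the labels do not give sex. The summed signal of 9 female-biased genes, which include these, was 1077 to 2045 at 0 h at 22 °C and 315 to 1144 at 30 °C, and 3 of the list (Cyp17a1, Cyp3a41a and Cyp3a44) were called lower at 30 °C at 0 h, beside 0.414% of all genes. Of 4 tested male-biased genes, 0 were called at 0 h between temperatures (median log2 difference -0.69). Of 2 tested genes of the sex chromosomes, Uty and Ddx3y of the Y chromosome, 0 were called there (median 1.10). At 24 h the sums of the female-biased genes were 328 to 623 at 22 °C and 422 to 1199 at 30 °C. The part of this list in the Sult2a1 results was not tested.

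The 27 members with low values were Ces1a, Ces2b, Ces2f, Ces2h, Fmo2, Fmo4, Gsta1, Gstm5, Gstm7, Gsto2, Gstp2, Gstp3, Sult1c2, Sult2a3, Sult2a4, Sult2a6, Sult2b1, Sult3a2, Sult4a1, Sult5a1, Ugt1a10, Ugt1a2, Ugt1a6a, Ugt1a6b, Ugt2a1, Ugt2a2 and Ugt2b37. Their mean signal over the 36 libraries was at most 4.90, that of Gstm7, and the highest value in any library was 44.8, for Ces2b. No test was made of them. Fmo2, named after its values were seen, read 10.48, 5.40, 13.1 and 7.67 at 0 h and 0.350, 0.250, 0.400, 0.880 and 3.42 at 12 h at 22 °C. At 30 °C it read 11.2, 10.8, 8.25, 11.1 and 11.3 at 0 h and 1.77, 2.62, 1.28 and 1.73 at 12 h. Its 0 h libraries were above its 12 h libraries at both temperatures, and 7 of the 9 libraries at 12 h were at or under 3 reads.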

How the data were processed

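Mouse liver RNA was measured in 36 libraries of 8 groups by CEL-Seq2 adapted to bulk RNA, in which a poly(T) primer carries a barcode and a molecular identifier and RNA is amplified by T7 transcription, per the labels' protocols. Trimmomatic, kallisto and sleuth were used, per the submitters' processing notes; for versions, genome build, index, molecular identifiers and scaling the sources used here give nothing. The authors deposited scaled reads per base and a TPM column, both treated as signal because the TPM column sums to between 757040 and 1746038 per library, which TPM would not do. Reads per library were estimated from the commonest smallest step between values, so depth is approximate, and limits of 3 reads cover counting error only. Values within 0.1% of the level of 3 reads were counted as at it.

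The 8702 of 34829 genes whose mean signal reached 5 were fitted on log2(signal + 1) with limma 3.58.1 in R 4.3.3, with 1 mean per group, all 36 libraries and a mean-variance trend. There were 17 contrasts, each adjusted by Benjamini-Hochberg over all tested genes. The fit was tested on simulated data. The members and lists were chosen with earlier results of these data known. Named members were the 3 with the highest mean signal in each family (Gst and Ugt also by subfamily), the largest called fall and rise per family and contrast with 0 h (the higher group's mean being 20 or more), and every member called between temperatures or in an interaction. Exceptions are stated beside them, and results of 1 tested member, which stays in the counts, are not reported here. Gene positions are from GENCODE M21 on GRCm38, and promoters from RefSeq on GRCm38.p6. Alternatives were other pseudocounts, filters, the TPM column, upper quartile rescaling, the groups of a contrast alone, a replicate block, and leaving out each library.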

Additional observations from a re-analysis of the deposited data

Results flagged for a closer look

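Groups of 4 or 5 libraries of a tested member were checked where the group's mean signal was at least 20. Of the 293 checked, 15 held a library far from the others by Dixon's ratio, and chance flags about 1 in 20 such groups. Ces1b read 52.0 in replicate 2 at 22 °C and 4 h, where the others read 69.4 to 72.7. Ces1d read 70.9 in replicate 3 at 22 °C and 0 h, where the others read 84.7 to 86.7. Ces2a read 143 in replicate 1 at 30 °C and 12 h, where the others read 85.0 to 90.5. Ces3b read 47.2 in replicate 2 at 22 °C and 4 h, where the others read 89.7 to 96.4. Gsta2 read 48.4 in replicate 2 at 22 °C and 4 h, where the others read 21.0 to 24.4. Gstp1 read 215 in replicate 4 at 22 °C and 4 h, where the others read 107 to 122. Sult1a1 read 92.1 in replicate 4 at 30 °C and 24 h, where the others read 193 to 223. Sult1e1 read 213 in replicate 3 at 22 °C and 24 h, where the others read 115 to 140.3. Sult2a8 read 197.5 in replicate 4 at 22 °C and 0 h, where the others read 287 to 302. Ugt1a8 read 330.1 in replicate 1 at 30 °C and 12 h, where the others read 178 to 192. Ugt2b1 read 151 in replicate 2 at 22 °C and 4 h, where the others read 259 to 276. Ugt2b34 read 506 in replicate 1 at 22 °C and 0 h, where the others read 389.5 to 408. Ugt2b35 read 93.0 in replicate 1 at 30 °C and 24 h, where the others read 76.8 to 81.2. Ugt2b36 read 44.0 in replicate 2 at 22 °C and 24 h, where the others read 29.6 to 33.1. Ugt2b5 read 83.3 in replicate 4 at 30 °C and 24 h, where the others read 132 to 146. Replicate 2 at 22 °C and 4 h accounts for 4 of these values. The causes were not tested.

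By the interaction contrast, the change from 0 to 24 h was called different between 30 °C and 22 °C for 11 members described here. The interaction on the log2 scale, with the limma adjusted p in parentheses, was as follows: Ces1d -3.31 (2.34e-06), Ces1g -1.70 (0.0307), Fmo5 2.28 (0.00179), Gsta2 -2.84 (0.00962), Gsta4 -2.97 (2.85e-04), Gstm1 -2.17 (1.11e-04), Gstp1 1.39 (0.00353), Sult2a7 2.69 (0.0468), Ugt2b34 1.47 (0.0395), Ugt2b35 1.46 (0.0183) and Ugt2b5 1.63 (0.00315). A negative value means a lower level at 24 h relative to 0 h at 30 °C than at 22 °C. Not all of these calls held in every alternative fit. Those of Ces1g, Ugt2b34 and Sult2a7 were lost in several, with a limma adjusted p of up to 0.0916, 0.101 and 0.118. That of Gsta2 was lost with a pseudocount of 5 (limma adjusted p = 0.0984).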

How the results depend on the processing

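No result changed direction under any alternative tried. The number of members called at 0 h between temperatures was 1, and 2 with a pseudocount of 5 (1 to 2 with a library left out). At 12 h between temperatures it was 15, and 9 with the groups of the contrast alone (8 to 21 with a library left out). At 4 h against 0 h at 22 °C it was 3, and 5 with a pseudocount of 5, 1 with no filter, 5 with a mean of at least 20, 5 on the TPM column, 6 with upper quartile rescaling and 9 with the groups alone (1 to 3, the 1 being without replicate 2 at 4 h). At 4 h at 30 °C it was 5, and 8 with upper quartile rescaling and 11 with the groups alone (3 to 6, the 3 being without replicate 2 at 4 h). The 12 h interaction had 0, and 1 with a mean of at least 20 and 1 with the replicate block (0 to 5, the 5 being without replicate 5 at 22 °C and 12 h). From 12 to 24 h at 22 °C it was 18, and 11 with the groups alone (12 to 20). The cause of these shifts was not tested. Shares over all genes under the alternatives, or with libraries left out, are not given here. A shift particular to the members therefore cannot be told apart from one common to all genes. With libraries left out, the counts at 12 and 24 h against 0 h were 37 to 43 and 42 to 45 at 22 °C, and 40 to 45 and 37 to 40 at 30 °C; between temperatures at 24 h they were 17 to 22, and for the 24 h interaction 9 to 15. Replicate numbers from the sample titles did not pair the libraries: deviations of libraries with the same number correlated between -0.125 and 0.106. With the replicate block, the 24 h temperature contrast had 19 calls and the 24 h interaction 14. The numbers in the deposited sample names differ from the titles for replicates 3 and 4 at 30 °C and 12 h. Pairing by those names was not tested. Depth limits values near 3 reads, as in Ces1d, Gsta2, Gstm3 and Sult1e1.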
